A study of Homo sapiens with 6 samples.

Results

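The clustered protocadherins are cadherin-like adhesion proteins encoded by 3 neighbouring gene arrays on the long arm of human chromosome 5, called PCDHA, PCDHB and PCDHG. Every row of the deposited expression table whose symbol starts with PCDHA, PCDHB or PCDHG was taken, which gave 57 of 23290 rows: 15 for PCDHA, 19 for PCDHB and 23 for PCDHG. The table holds FPKM (fragments scaled by transcript length and by the library total) in 6 libraries of U87 cells, an established human glioblastoma line. In 3 libraries the cells carried a retroviral scramble vector (shCTR), and in 3 they were infected with retrovirus to silence Caspase-8 (shC8), the initiator protease of death receptor signalling. Both groups therefore went through retroviral infection and both come from 1 cell line, grown in DMEM with serum. The series calls the 3 libraries of a group biological replicates and does not say how cultures or infections were separated. The p-values below thus measure the spread between these libraries, which may be technical. Which hairpins were used is not given in the sources used here, and the series' title is about SRC, NF-kB, blood vessel growth and therapy resistance, not protocadherins.

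Clustered protocadherins bind the same isoform on a facing cell, and neurons each express a small set of them, which lets a neuron tell its own branches from those of others. In the PCDHA and PCDHG arrays, each variable exon with its own promoter is spliced to constant exons shared by the whole array, and the shared exons encode a common cytoplasmic domain. A PCDHB gene is a single exon and has no such constant part. Most of these promoters hold a conserved element with CGCT at its core. CTCF and cohesin are known to bind at these promoters and loop them to distant enhancers, and DNA methylation is known to silence them. The last genes of PCDHA and PCDHG are called C-type and are expressed more uniformly among neurons.

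The annotation (GENCODE 29, build GRCh38, the assembly called hg38) places all 57 genes on the plus strand of chromosome 5. PCDHA spans chr5:140786136-141012347, PCDHB spans chr5:141051135-141249365 and PCDHG spans chr5:141330571-141512981. Each of the 19 PCDHB rows is annotated as 1 exon, and none shares an exon with another. Among the 15 PCDHA genes, 15 share an exon with another member, and 1 exon is common to all 15. In PCDHG 22 of 23 do, the exception being the pseudogene PCDHGB8P. A read from a constant exon cannot be assigned to 1 PCDHA or PCDHG gene, and how the authors' estimator divided such reads is not given in the sources used here. PCDHB genes share sequence too, without sharing exons. Of all 50-base words in the longest transcript, a median of 14.1% per PCDHB gene occur in another member (0% for PCDHB1, 45.8% for PCDHB8), against medians of 58% in PCDHA and 47.3% in PCDHG, where most of the transcripts include the constant exons. Where the longest annotated transcript is 1 exon, the shares varied. In PCDHA they were 1.53% for PCDHA4, 12% for PCDHA9 and 1.15% for PCDHA10. In PCDHG they were 5.14% for PCDHGA6, 58.5% for PCDHGB4, 37.1% for PCDHGA8, 5.12% for PCDHGB6 and 0% for PCDHGB8P. Pseudogenes in these arrays are PCDHB17 and PCDHB18 (PCDHB17P and PCDHB18P in the annotation), PCDHB19P and PCDHGB8P.

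The promoter element is shown for 12 genes, since the bases around its CGCT core differ between the 3 arrays. RefSeq promoters (GRCh38.p14, 250 bases before to 50 bases after each annotated start) were found for 47 of the 57 members: 13 of PCDHA, 14 of PCDHB and 20 of PCDHG. Below are 40-base windows on the plus strand, 5′ to 3′, with CGCT in capitals. Each match lies between 38 and 71 bases before the RefSeq start. The first 7 are PCDHB genes that range from the highest level of the array to one of the lower ones.
PCDHB2, chr5:141094538-141094577: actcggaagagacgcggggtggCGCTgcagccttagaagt
PCDHB7, chr5:141172560-141172599: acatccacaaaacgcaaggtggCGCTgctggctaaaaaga
PCDHB9, chr5:141187068-141187107: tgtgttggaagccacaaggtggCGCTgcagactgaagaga
PCDHB10, chr5:141192293-141192332: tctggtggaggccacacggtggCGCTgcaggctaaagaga
PCDHB12, chr5:141208637-141208676: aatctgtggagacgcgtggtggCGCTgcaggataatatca
PCDHB13, chr5:141213859-141213898: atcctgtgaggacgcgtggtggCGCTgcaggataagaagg
PCDHB15, chr5:141245308-141245347: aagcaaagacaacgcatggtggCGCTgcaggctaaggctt
PCDHA2, chr5:140794775-140794814: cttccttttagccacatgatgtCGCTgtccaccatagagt
PCDHA10, chr5:140855835-140855874: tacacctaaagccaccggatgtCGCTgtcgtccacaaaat
PCDHGA4, chr5:141354954-141354993: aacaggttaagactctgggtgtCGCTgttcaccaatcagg
PCDHGA9, chr5:141402708-141402747: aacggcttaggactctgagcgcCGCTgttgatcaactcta
PCDHGB1, chr5:141350019-141350058: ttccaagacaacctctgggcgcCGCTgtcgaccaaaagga

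All 7 PCDHB windows read ggtgg before CGCT, while the 2 PCDHA windows read gatgt. Each word below was searched on both strands of the 300-base promoters, and every longer word contains CGCT. The longer words were read off the sequences themselves. GGTGGCGCT was found in 13 of 14 PCDHB promoters (not in PCDHB1), in 0 of 13 PCDHA and in 0 of 20 PCDHG promoters, and in 0.501% of all 35116 promoters of the table. ATGTCGCT was found in 9 PCDHA promoters, in 0 PCDHB and 0 PCDHG promoters, and in 0.234% of all. GCGCCGCTG occurred in 10 PCDHG promoters (1.28% of all) and GTCGCTGTT in 6 PCDHG promoters (0.154% of all), and neither occurred in PCDHA or PCDHB. The core CGCT alone occurred in 12 of 13, 14 of 14 and 20 of 20 promoters of PCDHA, PCDHB and PCDHG and in 70% of all promoters, so it sets nothing apart. These matches describe the letters of the windows and do not show that a factor binds there.

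CASP8, the silenced gene, fell. It measured 15.1, 14.9 and 13.4 FPKM across the scramble libraries against 4.39, 4.46 and 4.44 FPKM across the silenced ones. Throughout, values are given in the order of libraries 1, 2 and 3. The change was -1.51 on the log2(FPKM + 1) scale (SE 0.0705, limma adjusted p = 0.000206), and an exact two-sided permutation test gave p = 0.1, the smallest value that 3 against 3 libraries allow. Columns summed to between 489055 and 516634 FPKM, and the depth in reads is unknown. Among 8 markers of mesenchymal glioblastoma, 3 were called higher and 2 lower in shC8, beside 7.14% and 4.94% of all genes tested, and their summed level overlapped between groups (5377 to 6574 FPKM in shCTR, 5540 to 6376 in shC8). The 5 astrocyte markers summed to 9.27 to 12.0 FPKM in shCTR and 4.84 to 6.48 in shC8, almost all of it SLC1A3, the 1 tested and called lower, with AQP4 listed at 0 in every library and GFAP at 0.297 FPKM or less. Of 9 neuronal markers 4 reached a mean of 1 FPKM, 0 were called, and the sums overlapped (88.8 to 113 and 109 to 115 FPKM). The 4 were TUBB3 (68.0 to 96.4 FPKM over the 6 libraries), SNAP25, SYT1 and MAP2. Of the others, SYP lay at 0.234 to 0.523 FPKM and RBFOX3 at 0.0081 to 0.204 FPKM, while DCX, STMN2 and NEFL were at 0.0816 FPKM or less. Oligodendrocyte, immune and endothelial markers summed to at most 0.265, 0.136 and 0.26 FPKM. Whether SLC1A3 and the glioblastoma markers that moved have a part in the protocadherin results was not tested.

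Most of the expressed PCDHB genes rose in shC8. Of the 19 rows, 13 averaged 1 FPKM or more across all 6 libraries and were tested, 12 of these rose, 0 fell, and PCDHB6 did not pass (limma on log2(FPKM + 1), Benjamini-Hochberg adjusted p under 0.05 over 11598 genes). Over all genes tested, 7.14% were called higher and 4.94% lower, 828 and 573 genes. Rescaling the libraries moved that split to 713 and 733 (quantile normalization) or 649 and 757 (median-of-ratios scaling), and the 12 PCDHB genes rose under both. The median change of the 13 was 0.71 on the log2 scale, beside 0.04 over all genes tested, and their ratios of mean FPKM lay between 1.46 and 2.83. PCDHB11 and PCDHB12 passed the filter only through their shC8 values, and with a minimum mean of 1 FPKM in shCTR alone 10 of 11 were called. In bulk RNA, more cells that express a gene cannot be told apart from more RNA per cell.

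**Figure D1:**
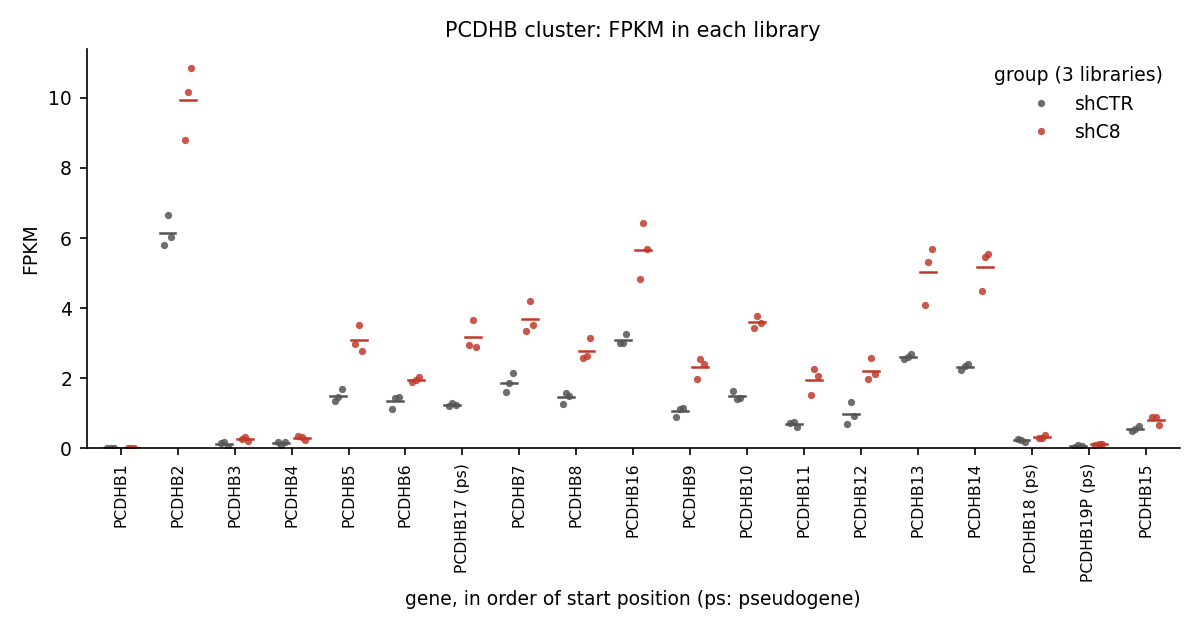
FPKM (linear axis) of each of the 19 PCDHB rows in each library, in order of start position along the array, with grey points for shCTR, red points for shC8 and a bar at each group's mean (3 libraries each). In 17 rows, each averaging 0.1 FPKM or more, shC8 is higher without overlap, beside 20.9% of all genes at that level. PCDHB2 is the highest in both groups, and PCDHB1 is listed at 0 throughout.

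PCDHB2 (chr5:141094578-141098703) was the most abundant gene of the array, with 5.79, 6.64 and 6.02 FPKM in shCTR against 8.8, 10.2 and 10.8 FPKM in shC8. All 3 shC8 libraries lay above all 3 shCTR libraries, and the change was 0.61 (SE 0.0919, adjusted p = 0.0089), a ratio of 1.615. PCDHB16 (chr5:141181399-141186399) had 3.01, 3.01 and 3.26 FPKM in shCTR and 4.84, 6.43 and 5.67 in shC8. Its shCTR libraries were close together, and the change was 0.69 (SE 0.102, adjusted p = 0.00835). For PCDHB13 (chr5:141213919-141218979) the values were 2.55, 2.60 and 2.69 FPKM in shCTR and 4.09, 5.31 and 5.67 in shC8. The lowest shC8 library was again well above the highest shCTR library, with a change of 0.73 (SE 0.112, adjusted p = 0.0095). PCDHB14 (chr5:141222932-141227759), the neighbour of PCDHB13, had 2.24, 2.34 and 2.40 FPKM in shCTR and 4.48, 5.47 and 5.56 in shC8. It more than doubled, at a ratio of 2.22 and a change of 0.89 (SE 0.0939, adjusted p = 0.00296).

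The next genes had shCTR means between 1 and 2 FPKM and lie between PCDHB4 and PCDHB11. PCDHB10 (chr5:141192353-141195642) went from 1.63, 1.42 and 1.42 FPKM in shCTR to 3.43, 3.78 and 3.58 in shC8. It had the lowest adjusted p of the array (change 0.88, SE 0.0845, adjusted p = 0.00207), with a ratio of 2.41. PCDHB7 (chr5:141172619-141176383) had 1.59, 1.86 and 2.16 FPKM in shCTR and 3.35, 4.21 and 3.53 in shC8, a change of 0.71 (SE 0.112, adjusted p = 0.0104). PCDHB5 (chr5:141135218-141138625) had 1.34, 1.48 and 1.68 FPKM in shCTR and 2.99, 3.52 and 2.78 in shC8. Both sets of shC8 libraries lay above their controls, and the PCDHB5 change was 0.71 (SE 0.104, adjusted p = 0.0083). PCDHB8 (chr5:141177790-141180529) had 1.28, 1.57 and 1.5 FPKM in shCTR and 2.58, 2.63 and 3.13 in shC8, a change of 0.63 (SE 0.1, adjusted p = 0.011). PCDHB8 and PCDHB10 share the most sequence with other members of the array (45.8% and 35.4% of their 50-base words), so the split of reads between such genes is uncertain. PCDHB9 (chr5:141187127-141191541) had 0.881, 1.13 and 1.15 FPKM in shCTR and 1.98, 2.55 and 2.39 in shC8. Its groups were separate too, and the change was 0.69 (SE 0.109, adjusted p = 0.0109).

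PCDHB11 (chr5:141199582-141203779) had the largest ratio of the tested genes. It had 0.72, 0.751 and 0.599 FPKM in shCTR and 1.53, 2.27 and 2.05 in shC8, a ratio of 2.83 and a change of 0.80 (SE 0.122, adjusted p = 0.00942). Adding 1 before taking the log shrinks the changes of genes at such levels, so ratios and log2 changes rank the genes differently. PCDHB12 (chr5:141208697-141212571) was the least steady of the 12, with 0.704, 1.33 and 0.908 FPKM in shCTR and 1.97, 2.57 and 2.11 in shC8. The groups did not overlap (change 0.71, SE 0.141, adjusted p = 0.0217). The call was lost without shCTR 1, shCTR 3, shC8 2 or shC8 3, at adjusted p = 0.0612, 0.0599, 0.0743 and 0.0675. The other 11 calls held in each of the 6 fits that leave out 1 library.

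PCDHB6 (chr5:141150022-141153287) was the tested gene of the array that did not pass. It had 1.12, 1.42 and 1.47 FPKM in shCTR and 1.90, 1.94 and 2.03 in shC8, so its groups did not overlap either. Its change was the smallest of the 13 tested, at 0.34 (SE 0.0971, adjusted p = 0.0606). With the replicate number as a block it passed (adjusted p = 0.0365), so that 13 of 13 were called, in a fit that called 26.6% of all genes, and 16.1% higher. It also passed without a trend in the moderation (adjusted p = 0.0367) and with a minimum mean of 0.1 FPKM (adjusted p = 0.0489). These were the only 3 of 16 alternatives that called PCDHB6. None of the 6 fits without 1 library called it, at a limma adjusted p of up to 0.159.

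Of the 3 PCDHB pseudogenes, 1 was high enough to test. PCDHB17 (chr5:141155996-141159061), annotated as a transcribed pseudogene between PCDHB6 and PCDHB7, rose. It had 1.21, 1.29 and 1.23 FPKM in shCTR and 2.94, 3.65 and 2.90 in shC8, a ratio of 2.54 and a change of 0.89 (SE 0.0996, adjusted p = 0.00362). PCDHB18, between PCDHB14 and PCDHB15, was too low to test, with 0.261, 0.242 and 0.166 FPKM in shCTR and 0.295, 0.302 and 0.389 in shC8. PCDHB19P was lower still, at 0.0369, 0.0872 and 0.0683 FPKM in shCTR and 0.0836, 0.127 and 0.121 in shC8, and its groups overlapped. Summed over the 3 pseudogenes, the level was 1.53 ± 0.0801 FPKM in shCTR and 3.6 ± 0.416 FPKM in shC8 (SD, n = 3 each), and PCDHB17 made up most of both sums.

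The expressed coding genes below the filter were PCDHB3, PCDHB4 and PCDHB15, with means over the 6 libraries of 0.193, 0.225 and 0.684 FPKM. In each of them the 3 shC8 libraries lay above the 3 shCTR libraries. The closest was PCDHB15, where shCTR 3 had 0.647 FPKM and shC8 3 had 0.658. PCDHB1, which lies apart from the rest at the start of the array, was listed at 0 in every library. Counting all rows, the groups did not overlap, with shC8 higher, in 17 of 19, and these were the 17 that averaged 0.1 FPKM or more. Over all genes at or above that level, 20.9% were higher in shC8 without overlap. With the filter lowered to 0.1 FPKM and a pseudocount of 0.1, 12 of the 17 were called, all higher, beside 6.02% of all genes called higher and 3.87% called lower.

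Values of the called PCDHB genes can be split by the numbers in the column names. The number in a name is low for shCTR 1, shCTR 3 and shC8 1 and high for shCTR 2, shC8 2 and shC8 3, and what it stands for was not stated. The 12 called PCDHB changes lay between 0.49 and 0.83 among the low numbers and between 0.51 and 0.96 among the high ones. The groups of each of these 12 genes do not overlap, so a rise in both subsets was fixed in advance and adds no support. Paired by replicate number, shC8 was higher in all 3 pairs for each of the 13 tested genes, as it must be where the groups do not overlap.

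The FPKM of all members was also summed for each array. Members differ in transcript length, so such a sum still depends in part on how reads are divided among them. PCDHB summed to 25.2, 28.0 and 27.6 FPKM with the scramble vector against 46.7, 56.5 and 53.9 FPKM after silencing. Group means were 26.9 ± 1.51 and 52.3 ± 5.04 FPKM (SD, n = 3 each), a ratio of 1.94, and the groups did not overlap. PCDHG began at nearly the same summed level, with 23.7, 25.7 and 27.7 FPKM in shCTR and 26.1, 28.4 and 25.5 in shC8. Its means were 25.7 ± 2.01 and 26.7 ± 1.54 FPKM (SD, n = 3 each), a ratio of 1.04 with overlapping groups. Without PCDHGC3, its most abundant gene, the other 22 rows summed to 12.8 ± 1.45 and 14.4 ± 1.24 FPKM (SD, n = 3 each). That ratio was 1.12, also with overlap. PCDHA was close to silent by comparison, summing to 1.19 ± 0.0504 and 1.35 ± 0.16 FPKM (SD, n = 3 each), a ratio of 1.13, also with overlap. The difference in change between the arrays was not tested.

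**Figure D2:**
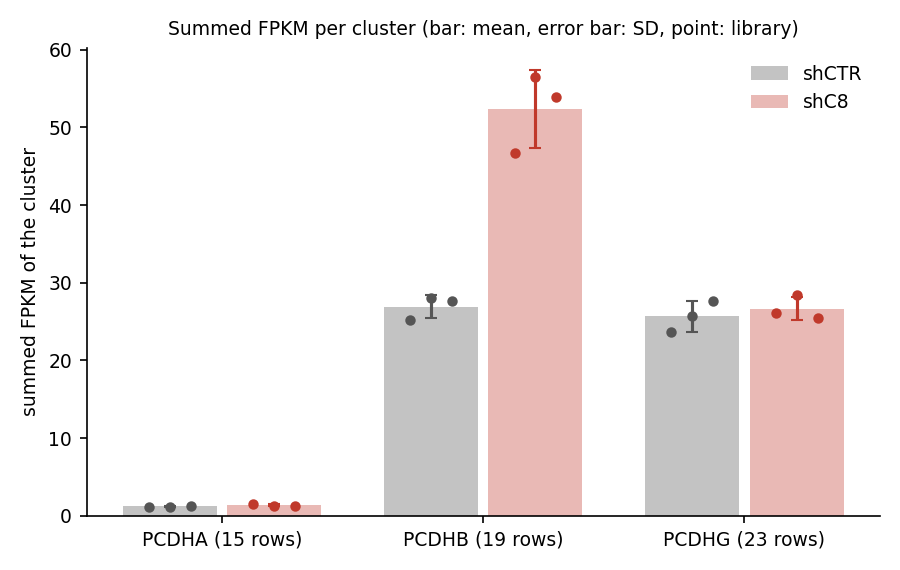
Summed FPKM of each array (linear axis from 0) in shCTR (grey) and shC8 (red), with bars at the mean of 3 libraries, error bars of 1 SD and a point per library. PCDHB and PCDHG start at 26.9 and 25.7 FPKM, and PCDHB alone of the 3 sums separates the groups, with 52.3 FPKM in shC8.

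The make-up of the PCDHB sum shifted by only a few points. PCDHB2 made up 22.8% ± 0.967 of it in shCTR and 19.0% ± 1.08 of it in shC8 (SD, n = 3 each), the largest shift of the array. The next shifts upward were those of PCDHB17, from 4.64% ± 0.174 to 6.05% ± 0.588, and PCDHB10, from 5.57% ± 0.779 to 6.89% ± 0.385. PCDHB2 thus had the highest level and the smallest ratio among the 12 called genes, and PCDHB11, PCDHB17 and PCDHB10 had the largest ratios.

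**Figure D3:**
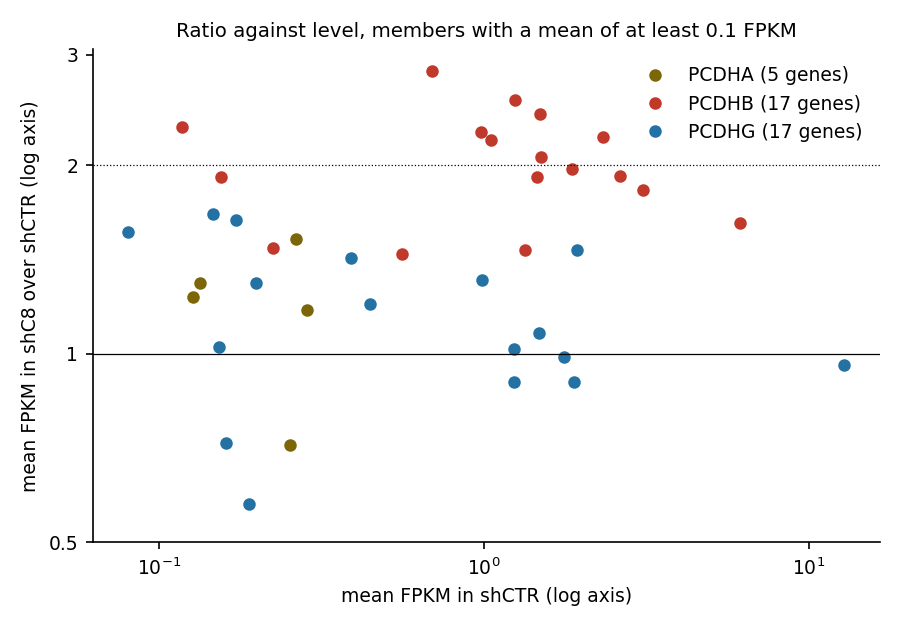
Ratio of mean FPKM in shC8 over shCTR (log axis) against mean FPKM in shCTR (log axis) for the 39 members that average 0.1 FPKM or more, with a solid line at a ratio of 1 and a dotted line at 2. The 17 PCDHB genes all lie above 1, while PCDHG and PCDHA genes lie on both sides of 1.

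In PCDHG, 8 of 23 rows were tested, 1 rose, 0 fell and 7 did not pass, beside the 7.14% called higher over all genes. Their median change was 0.00, and the tested changes ran from -0.09 to 0.38. PCDHGC3, a C-type gene (chr5:141475947-141512979), was the most abundant clustered protocadherin in these cells. It had 12.5, 12.1 and 13.9 FPKM in shCTR and 13.1, 12.9 and 10.9 in shC8, with overlapping groups (change -0.06, SE 0.0894, adjusted p = 0.704). PCDHGC3 made up 50.1% ± 2.88 of the PCDHG sum in shCTR and 46.2% ± 3.61 of it in shC8 (SD, n = 3 each). The change of PCDHGC3 turned to 0.02 without shC8 3. PCDHGC5 had 1.49, 2.13 and 2.05 FPKM in shCTR and 1.54, 1.90 and 1.67 in shC8, again with overlap (change -0.09, SE 0.118, adjusted p = 0.65). PCDHGC4, the third C-type gene, was at 0.0603 to 0.152 FPKM and was not tested.

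PCDHGB1 (chr5:141350102-141512979) was the PCDHG gene that passed. It had 1.83, 2.17 and 1.81 FPKM in shCTR and 2.56, 2.88 and 3.05 in shC8, and the groups did not overlap. The change was 0.38 (SE 0.0957, adjusted p = 0.0421), and its share of the PCDHG sum went from 7.57% ± 0.973 to 10.6% ± 1.18 (SD, n = 3 each). This call is not firm. It was lost without any 1 of shCTR 1, shCTR 2, shCTR 3, shC8 2 or shC8 3, at adjusted p = 0.119, 0.0635, 0.106, 0.119 and 0.132. It was also lost with no filter, under quantile normalization, under median-of-ratios scaling and with a term for the low or high column numbers (adjusted p from 0.0585 to 0.0754). The direction was upward in each of these fits, and the change was 0.34 among the low column numbers and 0.32 among the high ones. Because the groups of PCDHGB1 do not overlap, a rise in both subsets was fixed in advance and adds no support.

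The other tested PCDHG genes moved little and in no common direction. PCDHGA1, the first gene of the array, had 0.815, 1.04 and 1.11 FPKM in shCTR and 1.28, 1.24 and 1.36 in shC8. Its groups were separate but the change of 0.21 did not pass (SE 0.102, adjusted p = 0.212). PCDHGA4 had 1.88, 1.73 and 1.68 FPKM in shCTR and 1.82, 1.85 and 1.55 in shC8, a change of -0.01 (SE 0.0922, adjusted p = 0.941). PCDHGA9 had 1.16, 1.33 and 1.22 FPKM in shCTR and 1.12, 1.04 and 1.19 in shC8, a change of -0.08 (SE 0.0927, adjusted p = 0.6). In both of these the groups overlapped. PCDHGA10 had 1.11, 1.64 and 1.68 FPKM in shCTR and 1.38, 1.78 and 1.61 in shC8, a change of 0.07 (SE 0.126, adjusted p = 0.748). PCDHGB2 had 0.924, 1.27 and 1.51 FPKM in shCTR and 0.983, 1.62 and 1.16 in shC8, a change of 0.01 (SE 0.147, adjusted p = 0.969). The spread within a group was wider than the difference between groups in both. Signs of the changes of PCDHGA4, PCDHGA10 and PCDHGB2 flipped under some alternatives, and a missed threshold does not show that these genes were equal in the groups.

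**Figure D4:**
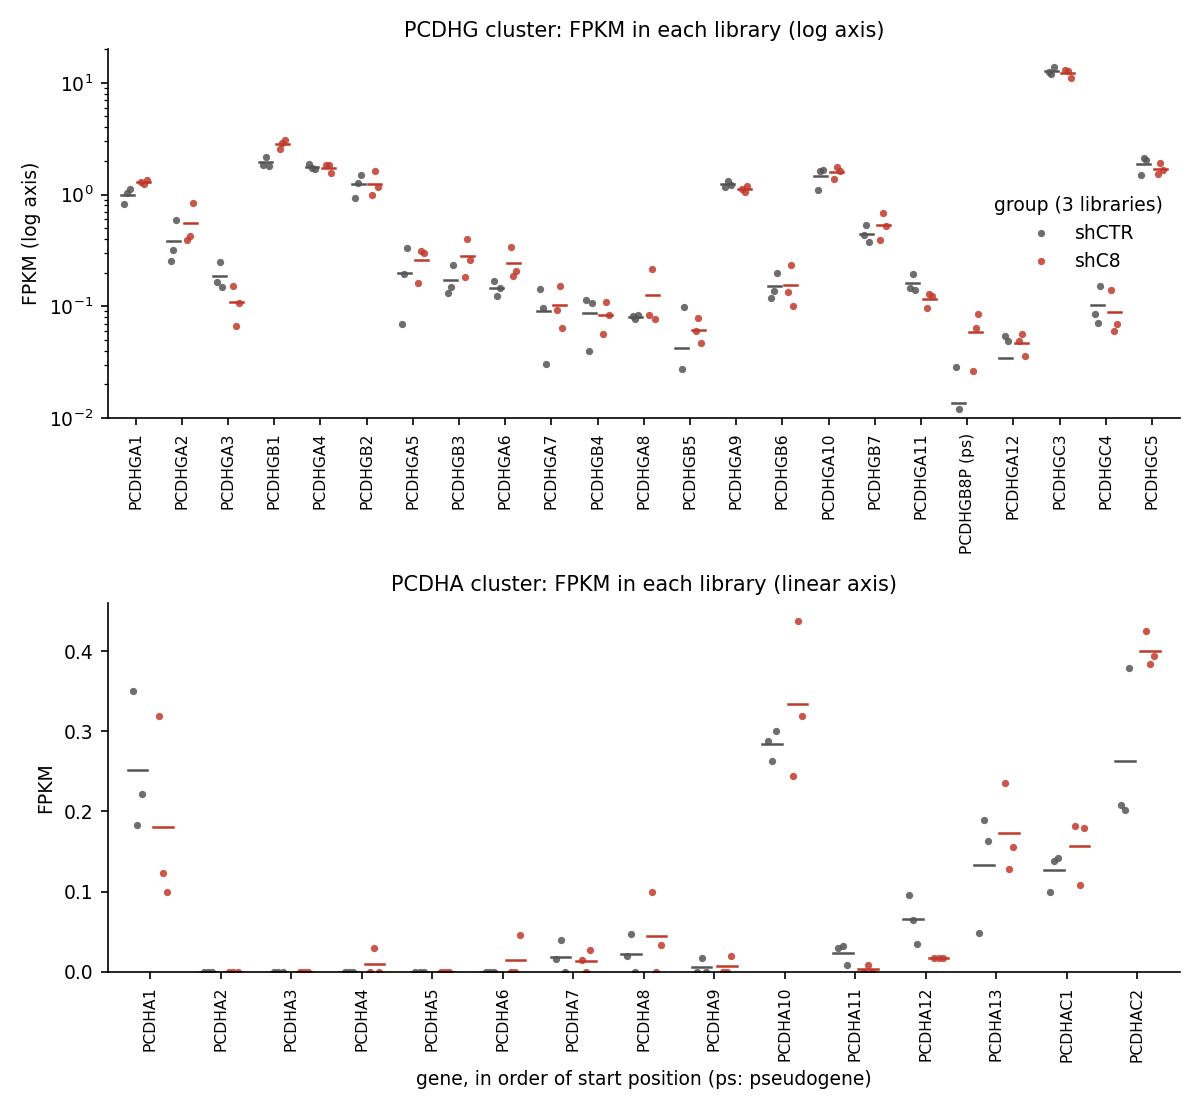
FPKM per library for the PCDHG array (upper panel, log axis from 0.01, values below it not drawn) and the PCDHA array (lower panel, linear axis), in order of start position, with grey points for shCTR, red points for shC8 and bars at the means of 3 libraries. Points of the 2 groups overlap for most genes; PCDHGC3 stands above all others, at means of 12.8 and 12.3 FPKM, and the highest PCDHA value is 0.438 FPKM.

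The other 15 PCDHG rows had a mean of at most 0.49 FPKM and were not tested. PCDHGB8P, the pseudogene, had 0.0286 and 0.012 FPKM in the first pair of scramble libraries, a listed 0 in shCTR 3, and 0.0264, 0.0636 and 0.0857 in shC8. These levels are too low to compare. Over the 23 rows, shC8 was higher without overlap in 3 (PCDHGA1, PCDHGB1 and PCDHGA6) and lower in 1 (PCDHGA11). Among all genes that averaged 1 FPKM or more, 21.7% were higher and 13.1% lower without overlap. At 0.1 FPKM or more 20.9% were higher, and no lower share was computed there. Most of the 23 rows lie below 1 FPKM, so these shares are a rough background and the counts are no result about PCDHG. Both genes from below the filter were singled out after their values were seen. PCDHGA6 had 0.167, 0.124 and 0.147 FPKM in shCTR and 0.337, 0.188 and 0.206 in shC8. The 3 subfamilies differed in how far their sums separated: the 12 PCDHGA genes had a ratio of 1.08 and the 3 C-type genes 0.951, both with overlapping groups. PCDHGB genes with the pseudogene summed to 4.08 ± 0.436 FPKM in shCTR and 5.26 ± 0.839 FPKM in shC8 (SD, n = 3 each). The ratio was 1.29, and the groups did not overlap but nearly met, at 4.34 FPKM in shCTR 3 and 4.39 in shC8 1. PCDHGB1 gave most of the difference between the means.

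No PCDHA gene reached a mean of 1 FPKM, so none was tested, and the values are a description. PCDHAC2, the last C-type gene of the array, was the highest, with 0.208, 0.202 and 0.379 FPKM in shCTR and 0.425, 0.384 and 0.393 in shC8. Its groups did not overlap, though shCTR 3 and shC8 2 lay close together. PCDHAC1 had 0.0999, 0.138 and 0.142 FPKM in shCTR and 0.182, 0.109 and 0.179 in shC8, with overlap. PCDHA10 and PCDHA1 followed at means over the 6 libraries of 0.309 and 0.216 FPKM. PCDHA11 and PCDHA12, singled out after their values were seen, were lower in shC8 without overlap, and PCDHA12 went from 0.0962, 0.0644 and 0.035 FPKM to 0.0167, 0.0171 and 0.0166. In all, 1 of 15 rows was higher and 2 were lower without overlap. Over all genes that averaged 1 FPKM or more, the shares were 21.7% and 13.1%. No PCDHA row reached that level, so these shares are a rough background, and nothing is read from the counts. The PCDHA estimates are fragile at this level. In 9 of 15 rows at least 1 library was under 0.001 FPKM, and PCDHA2 to PCDHA6 were under it in 5 or more libraries. With the filter at 0.1 FPKM and a pseudocount of 0.1, 5 PCDHA genes were tested and 0 were called (limma; 0 also at an unadjusted p under 0.05), beside 9.89% of all genes called in either direction. The same 5 gave 0 calls with a pseudocount of 1.

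Along PCDHB, gene number and position are not the same order: PCDHB17 lies between PCDHB6 and PCDHB7, PCDHB16 between PCDHB8 and PCDHB9, and PCDHB15 last. Among the 13 tested PCDHB genes, Spearman's rho between the log2 change and the number in the symbol was 0.61, and 0.52 for the order of start positions. Levels of the 19 rows had no such order (rho = -0.03 for position). Among the 8 tested PCDHG genes, rho between change and position was -0.76, as PCDHGA1 and PCDHGB1 lie first and PCDHGC5 last. In PCDHA, shCTR levels over the 15 genes had rho = 0.64 with position but 0.18 with the number in the symbol. PCDHA1, the first gene, averaged 0.252 FPKM in shCTR, and the ranks of PCDHA2 to PCDHA6 rest on values under 0.001 FPKM. These coefficients describe genes measured in the same 6 libraries that share sequence, and are given without p. Ratios rank the PCDHB genes differently from log2 changes, and no coefficient was computed for ratios.

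**Figure D5:**
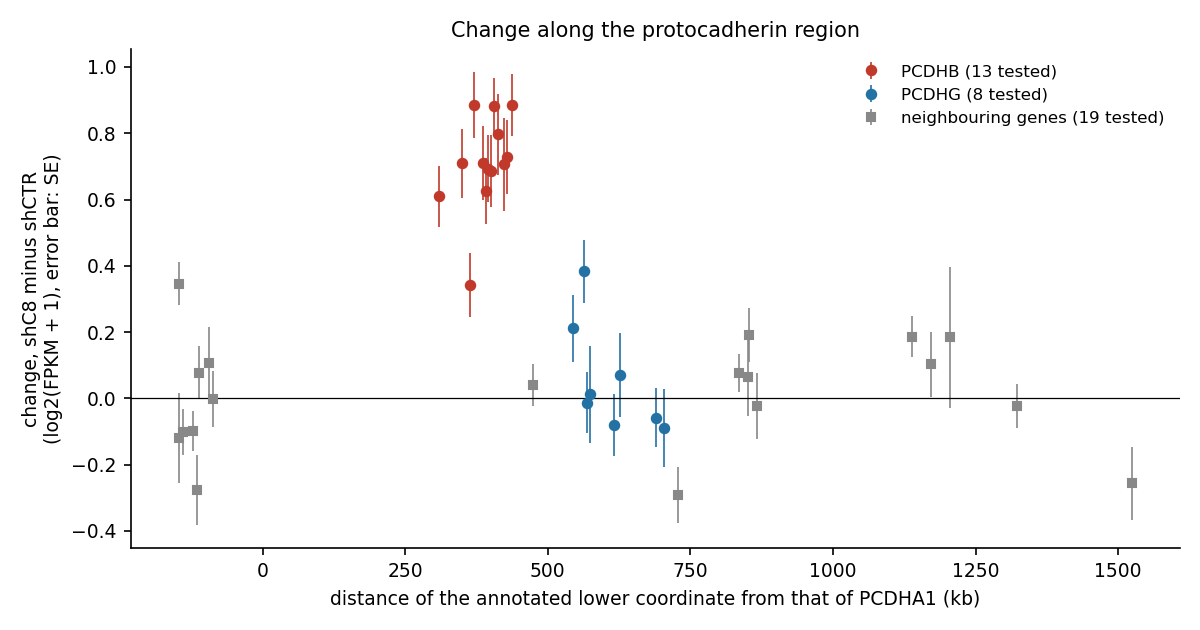
Change in shC8 minus shCTR on the log2(FPKM + 1) scale, with error bars of 1 SE, against distance from PCDHA1 in kilobases, for the tested PCDHB (red), PCDHG (blue) and neighbouring genes (grey squares). The 13 PCDHB genes lie between 0.34 and 0.89, and TAF7, the tested neighbour between PCDHB and PCDHG, lies at 0.04.

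Neighbouring genes on both sides of the arrays give the local background. Of 23 listed, 19 were tested, 1 rose and 0 fell, near the 7.14% called higher over all genes, with a median change of 0.04, beside 0.04 over all genes. The transcription factor subunit gene TAF7, between PCDHB and PCDHG, had 46.2, 43.0 and 45.0 FPKM in shCTR and 48.0, 43.4 and 46.8 in shC8 (change 0.04, SE 0.0643, adjusted p = 0.713). NDUFA2, a subunit of mitochondrial complex I upstream of PCDHA, rose from 26.9, 29.6 and 29.2 FPKM to 36.7, 37.8 and 35.2 (change 0.35, SE 0.0646, adjusted p = 0.0172). The NDUFA2 call was lost without shCTR 1, shC8 2 or shC8 3, at an adjusted p of up to 0.0649.

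Among 26 genes that act on clustered protocadherin promoters or their chromatin, 24 were tested, 2 rose, 1 fell and 21 did not pass, with a median change of 0.03. That share of calls is near the 12.1% called over all genes, so the calls below are values of single genes and not a result about the list. CTCF, which binds these promoters, had 20.5, 22.1 and 22.8 FPKM in shCTR and 21.5, 22.1 and 21.9 in shC8 (change 0.00, SE 0.0632, adjusted p = 0.975). STAG2, a subunit of the cohesin ring complex, fell from 32.3, 32.9 and 33.0 FPKM to 21.1, 21.6 and 24.7, a change of -0.53 (SE 0.0726, adjusted p = 0.00672). STAG2 passed whichever library was left out, and its groups were far apart. TET2, an enzyme that oxidizes methylated cytosine, rose from 3.41, 3.5 and 3.4 FPKM to 4.63, 5.6 and 5.49 (change 0.49, SE 0.086, adjusted p = 0.0144). Its call was lost without shC8 2 or shC8 3 (adjusted p = 0.057 and 0.0607). MAU2, part of the cohesin loader, rose from 5.09, 6.35 and 6.39 FPKM to 7.5, 7.83 and 8.61 (change 0.38, SE 0.0987, adjusted p = 0.0496), and this call was lost without any 1 of the 6 libraries, at an adjusted p of up to 0.154. Whether STAG2, TET2 or MAU2 has a part in the PCDHB values was not tested.

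Of 19 genes for partners of protocadherin cytoplasmic domains and related adhesion signalling, 18 were tested, 1 rose, 2 fell and 15 did not pass, with a median change of 0.05. Over all genes 7.14% were called higher and 4.94% lower, and so few calls are no result about the list. MARCKS, an actin-binding substrate of protein kinase C, rose from 62.4, 64.8 and 51.0 FPKM to 77.1, 95.4 and 78.9 (change 0.49, SE 0.117, adjusted p = 0.0366). CYFIP2, a subunit of the WAVE actin regulator complex, fell from 5.67, 4.83 and 5.43 FPKM to 3.97, 3.24 and 3.14 (change -0.51, SE 0.0997, adjusted p = 0.0204). PTK2B, the kinase PYK2 that protocadherins are known to inhibit, fell from 1.98, 1.71 and 1.60 FPKM to 1.17, 1.09 and 0.992 (change -0.41, SE 0.0985, adjusted p = 0.0391). The groups of these 3 genes did not overlap, but none of the calls is firm. MARCKS was lost without any library except shC8 1, CYFIP2 without shCTR 1, shCTR 3, shC8 2 or shC8 3, and PTK2B without any 1 of the 6, at adjusted p of up to 0.102, 0.0762 and 0.117.

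Non-clustered protocadherins, which lie outside the arrays, were mostly low in U87 cells. Of 12, 5 were tested, 2 rose and 3 did not pass, beside 7.14% called higher over all genes. Their median change was 0.50, beside 0.04 over all genes. The 3 that did not pass were PCDH9 (change 0.38), PCDH18 (0.50) and PCDH17, which went the other way (-0.18). PCDH7 rose from 3.66, 4.07 and 3.49 FPKM to 6.05, 6.49 and 5.52 (change 0.57, SE 0.0869, adjusted p = 0.0095), and passed whichever library was left out. PCDH10 rose from 0.628, 0.817 and 0.889 FPKM to 1.35, 2.06 and 2.29 (change 0.69, SE 0.146, adjusted p = 0.026). PCDH10 passed the filter only through its shC8 values, and its call was lost without any library except shC8 1, at an adjusted p of up to 0.0865.

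Likeness over the 6 libraries was read from the 3 most alike genes only, and none of these was a member. For PCDHB2, the 3 genes with the highest Pearson correlation of log2(FPKM + 1) over the 6 libraries, among 11597 others, held no clustered protocadherin. The best-ranked member was PCDHGB1, at rank 9 with r = 0.99. For PCDHGC3 the best-ranked member was PCDHGA4, at rank 788 with r = 0.53. With 6 libraries in 2 groups, many genes reach a high coefficient.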

How the data were processed

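Per the labels' protocols, RNA was treated with DNase, ribosomal RNA was removed and libraries kept strand. The values are FPKM per gene symbol and library as deposited by the authors. The submitters' processing notes name TopHat, Cufflinks, Cuffdiff and hg38; versions, annotation, use of strand and scaling are not given in the sources used here. Such values carry no counts, which leaves depth unknown and precludes a count model. A listed 0 can be a failed estimate.

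The filter was a mean of 1 FPKM or more. Values were tested as log2(FPKM + 1) with limma 3.58.1 (R 4.3.3), with a mean trend and two-sided; a call needs an adjusted p (Benjamini-Hochberg, all tested genes) under 0.05. Ratios are of mean FPKM. Scripts were tested on simulated data. Python 3.11.15, pandas 2.3.3 and matplotlib 3.10.9 served for the rest. Positions came from GENCODE 29, and promoters of 47 of the 57 members from RefSeq.

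The members and lists were chosen with earlier results of these data known. Named were members that passed the filter, C-type genes, pseudogenes and the highest gene of each array, CASP8, CTCF, and up to 4 called genes per list. TAF7, the non-clustered protocadherins that did not pass, and genes said to be singled out or given by a count, were chosen after their values were seen.

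Replicate numbers 1 to 3 recur in shCTR and shC8. Across genes, same-numbered libraries deviated together from their group means (r = 0.397, 0.266 and 0.291). As each r exceeds 0.1, a fit with the replicate number as a block was run as an alternative. Reading the numbers as pairs rests on the data alone. The main fit has no block, so its SEs, adjusted p-values and shares of genes called leave any pairing out. It called 12.1% of the genes tested, and the fit with the block called 26.6%. Alternatives were other pseudocounts, filters and scalings, the replicate block, a column-number term, no trend, and each library left out. The filter on shCTR alone was added after seeing the data.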

Additional observations from a re-analysis of the deposited data

How the results depend on the processing

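Of the 12 called PCDHB genes, 11 kept their call without any 1 library and all 12 under each of the 10 other alternatives that tested them; their count stayed between 10 and 13. The PCDHG count fell from 1 to 0 with no filter, quantile normalization, median-of-ratios scaling or the column-number term, and lay between 0 and 1 with a library left out. With the replicate block 3086 genes were called in place of 1401, 13 of them in PCDHB; no other call of a tested member changed under the pairing. With a library left out between 477 and 1346 genes were called (642, 644, 840, 574 and 477 without shCTR 1, shCTR 2, shCTR 3, shC8 2 and shC8 3), in fits with fewer samples. Higher and lower calls split 828 to 573 as deposited, 713 to 733 under quantile normalization and 649 to 757 under median-of-ratios scaling.

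The median PCDHB change was 0.997 with a pseudocount of 0.1 and 0.903 with a 0.1 FPKM filter as well, where the PCDHG median was 0.116; a smaller pseudocount shrinks low genes less. Under quantile normalization the log2 ratios of the summed FPKM were -0.105 for PCDHA and -0.0455 for PCDHG, from 0.18 and 0.05; the cause was not tested. Changes near 0 reversed sign, none of them called, and the cause was not tested. CTCF went to -0.00799, -0.033 and -0.00739 under quantile normalization, median-of-ratios scaling and the column-number term, and PCDHGB2 to -0.0694, -0.00819 and -0.0392 under the same 3. PCDHGA10 went to -0.0159 under quantile normalization and PCDHGA4 to 0.00167 with the column-number term. With a library left out, CTCF lay between -0.0388 (without shCTR 1) and 0.0352, PCDHGB2 between -0.101 (without shC8 2) and 0.1004, PCDHGA10 between -0.0404 (without shCTR 1) and 0.131, PCDHGA4 between -0.0434 and 0.0384 (without shC8 3), and PCDHGC3 between -0.102 and 0.0175 (without shC8 3). Depth is unknown, so counting error at low FPKM could not be given.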
